A study of Mus musculus with 18 samples.

Results

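The genes described here are those of the ISG15 conjugation pathway together with antiviral ubiquitin ligases of the TRIM family and Rnf213. The set was Isg15, Usp18, Uba7, Ube2l6, Herc6, Trim25, Trim21, Trim30a, Trim34a and Rnf213, picked by name because their counts were known to be higher when doxycycline (Dox) was added. Of these 10 genes, 9 had a row among the 17672 genes of the deposited table, and counts of Rnf213 were not analysed here. The counts came from an immortalised mouse brown adipocyte line in which a stable lentiviral shRNA lowers Abhd5, the gene for a protein that activates the lipase ATGL. The line also carries an shRNA-resistant, mCherry-tagged ABHD5 that is switched on by Dox, so all 18 libraries share the shRNA and the construct, and they differ in Dox and in the stimulation. Differentiated cells received no Dox or 1 µg/ml Dox, for 24 to 48 h by the labels' protocol and 24 h by the study's account of this experiment, and the 3 h stimulation that followed used DMSO as vehicle, 10 nM isoproterenol (ISO), a β-adrenergic agonist, or 20 µM SR-3420, a synthetic ligand of ABHD5. This gave 6 groups of 3 replicates. No group received Dox without the construct, so an effect of Dox itself and an effect of the ABHD5 it induces cannot be told apart.

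ISG15 is a small ubiquitin-like protein that interferon induces strongly and that is joined to other proteins through a chain of 3 enzymes. UBA7 is its activating enzyme (E1), UBE2L6 (UBCH8) the conjugating enzyme (E2), and the ligase step (E3) is carried out in mice mainly by HERC6, with TRIM25 described as a further ligase. USP18 removes ISG15 from its targets and separately dampens signalling from the type I interferon receptor. The TRIM proteins of the set are RING-type ubiquitin ligases with roles in antiviral defence. TRIM25 acts in RIG-I signalling, TRIM21 is a cytosolic antibody receptor, and Trim30a and Trim34a belong to a cluster of related rodent and mammalian genes. All are textbook interferon-stimulated genes, and brown adipocytes are not a cell type in which this pathway is usually studied.

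To show a sequence that some of the set carry near their start sites, promoter windows of 300 bases from RefSeq (GRCm38.p6, 250 bases before to 50 after a start) were searched on both strands for GAAANNGAAA, whose reverse complement is TTTCNNTTTC, the core of the interferon-stimulated response element. Windows were available for 9 of the 10 genes, and Usp18 had none. The letters were found for 4 genes, Isg15, Trim21, Trim30a and Trim34a, of the 9 with a window, against 3.99% of all 27025 genes, and overlapping matches stood side by side in Isg15 (3 matches) and Trim21 (2 matches). They were not found in the windows of Uba7, Ube2l6, Herc6, Trim25 and Rnf213. The matches, shown because these 4 genes share them, are given below as 30 bases 5′ to 3′ on the strand of the gene, with matched bases in capitals.
Isg15, chr4:156200871-156200900, minus strand: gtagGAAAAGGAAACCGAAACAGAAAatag
Trim21, chr7:102565447-102565476, minus strand: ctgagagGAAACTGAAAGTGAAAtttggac
Trim34a, chr7:104244457-104244486, plus strand: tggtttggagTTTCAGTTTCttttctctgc
Trim30a, chr7:104465210-104465239, minus strand: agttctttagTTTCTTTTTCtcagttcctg
Trim30a, second start, chr7:104446104-104446133, minus strand: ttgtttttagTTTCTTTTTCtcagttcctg
In Isg15 the matches lay upstream of the start, the outermost beginning at position -78 and the innermost at -66. In Trim21 and Trim34a they lay just downstream, at positions 14 and 20 and at position 11. A match describes the letters and is not evidence of a bound factor. Of the other interferon-stimulated genes listed for comparison, 16 of the 39 with a window held the same letters, as did 6 of 49 other TRIM genes.

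The table gave whole-number counts for each gene, on mouse build mm9. The table's column of counted bases lay within 10% of the annotated intron length in 72.5% of 16559 genes and within 10% of the exon length in 2.27%. Actb and Gapdh, whose mRNAs are abundant in most cells, had 2121 and 2032 counts over all 18 libraries. The values are read here as intron counts, which report unspliced RNA, whereas the methods name the gene option of the counting tool and no source states that exons were left out. Library totals ran from 689910 to 1956565 counts with a median of 1145729. Normalised values (CPM) are counts divided by the TMM-scaled total of the genes kept by the filter on low counts, and multiplied by 1000000. SR-3420 with Dox replicate 1 stood apart, as its 10 most abundant genes held 35.6% of its counts against 16.3% to 26.5% in the other 17 libraries, and its TMM factor was the lowest at 0.768. Abhd5 itself (NM_026179) had 41 to 173 counts per library without Dox and 431 to 1211 with Dox. Its group mean in DMSO was 52.6 ± 4.71 CPM without and 574 ± 86.1 CPM with Dox (SD, n = 3), in the direction of the labels. The counts do not tell the construct from the endogenous gene, and a construct without introns would add nothing to intron counts, so the source of this difference was not tested. Adipocyte markers were present, with 12 of 13 measured markers passing the filter on low counts and Dio2 at 0 in every library. Of 17 measured markers of macrophages and other leukocytes, 10 had at most 3 counts in any library, Ptprc among them with at most 2, and Cd68 and Fcer1g alone passed the filter. Their summed level was 27.0 to 48.7 CPM without Dox and 25.0 to 47.7 CPM with Dox. Fcer1g was called lower with Dox in SR-3420, at -1.81 on the log2 scale (edgeR adjusted p 0.00271), and its part in the values of the set was not tested. In these bulk samples, more cells of a type and more RNA per cell cannot be told apart.

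Isg15 (NM_015783, chromosome 4, 155573533 to 155574927, minus strand), the modifier itself, has only 638 counted bases and gave few counts. Without Dox, a single count was found in the 9 libraries together, in ISO replicate 2. With Dox, the 3 replicates gave 4, 4 and 4 counts in DMSO, 1, 8 and 4 in ISO, and 6, 2 and 3 in SR-3420. Every library with Dox thus held at least 1 count, and ISO with Dox replicate 1 was the lowest. In DMSO and SR-3420, where counts without Dox were 0, a floor of 3 counts per group was used instead. The level with Dox was then 2.90-fold that floor in DMSO and 5.50-fold in SR-3420. The error of the 12 and 11 counts with Dox is left out of these 2 ratios, so neither is a lower limit. In ISO, 13 counts stood against 1, a ratio of 12.1 with an exact 95% counting interval of 1.82 to 514. The interval in ISO covers counting error only, and Isg15 fell below the filter and was not tested. With no filter, edgeR called it in SR-3420 and not in DMSO or ISO.

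The other 8 genes passed the filter on low counts, and all had higher values with Dox in DMSO, ISO and SR-3420. A gene was called when its edgeR quasi-likelihood adjusted p did not exceed 0.05 and the fitted difference reached 1 log2 unit. In DMSO, 8 of the 8 were called higher with Dox, against 0.874% of all 10178 genes tested. In ISO, all 8 were called, against 3.13%, and in SR-3420 the count was 7, against 2.44%, with Trim21 as the exception. By limma-voom the counts were 5 in DMSO, without Trim30a, Ube2l6 and Uba7, 6 in ISO, without Trim21 and Uba7, and 7 in SR-3420. Since these genes were chosen for this difference, the counts and fold changes describe the set and test nothing. The median log2 fold change of the 8 genes was 2.22 in DMSO, 2.10 in ISO and 2.06 in SR-3420, where the median of all tested genes was 0.00, -0.01 and 0.00.

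**Figure D1:**
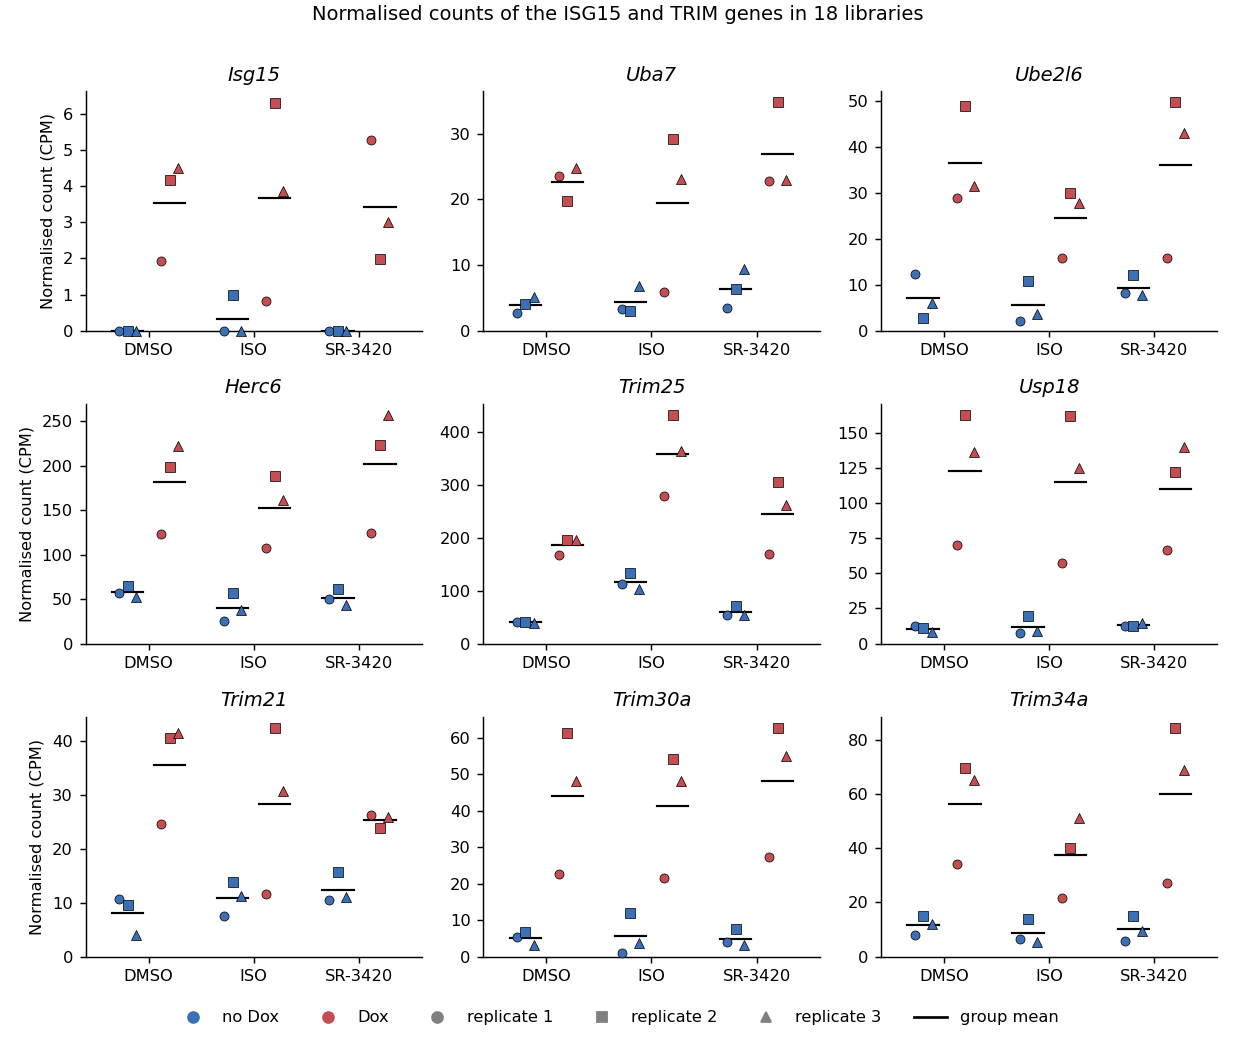
Normalised counts (CPM, vertical axis, linear from 0) of the 9 measured genes in every library, by stimulation, with libraries without Dox in blue, libraries with Dox in red, the replicate number as the symbol and the group mean as a bar. Values with Dox lie above those without in DMSO and SR-3420 for every gene, whereas in ISO replicate 1 with Dox reaches the range without Dox for Isg15, Uba7 and Trim21.

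Among the enzymes of the chain, Uba7 (NM_023738, chromosome 9, 107877898 to 107886387, plus strand), the E1, had 2.67, 4.08 and 5.07 CPM in DMSO without Dox and 23.6, 19.8 and 24.7 with Dox. In ISO it had 3.24, 2.97 and 6.76 CPM without Dox and 5.84, 29.1 and 23.1 with Dox. In SR-3420 it had 3.48, 6.39 and 9.41 CPM without Dox and 22.9, 34.8 and 23.0 with Dox. The 2 states were clear of each other in DMSO and SR-3420 and overlapped in ISO, where replicate 1 with Dox fell among the values without. The log2 fold changes were 2.52 (SE 0.59), 2.06 (SE 0.53) and 2.09 (SE 0.43) in DMSO, ISO and SR-3420. Counts were low, at 3 to 12 per library without Dox, and the table counted only 1978 of the 5328 annotated intron bases of the gene.

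Ube2l6 (NM_019949, chromosome 2, 84638985 to 84650160, plus strand), the E2, ranged from 2.16 to 12.5 CPM over the 9 libraries without Dox and from 15.8 to 49.7 CPM over the 9 with Dox, so the lowest value with Dox exceeded the highest without. Its log2 fold changes were 2.20 (SE 0.50), 2.13 (SE 0.54) and 1.90 (SE 0.41) in DMSO, ISO and SR-3420. The values for DMSO and ISO depended on the highest library of the group without Dox, and were 2.91 without DMSO replicate 1 (12.5 CPM) and 2.97 without ISO replicate 2 (10.9 CPM).

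Herc6 (NM_025992, chromosome 6, 57530986 to 57615130, plus strand), the mouse ISG15 ligase, had the smallest difference in DMSO of the 8 genes and one of the smallest errors. It measured 56.9, 65.3 and 52.8 CPM in DMSO without Dox and 124, 199 and 222 CPM with Dox. Over all 18 libraries it ran from 25.9 to 65.3 CPM without and from 108 to 258 CPM with Dox, with no overlap. The log2 fold changes were 1.62 (SE 0.27), 1.91 (SE 0.28) and 1.95 (SE 0.25), and those in ISO and SR-3420 exceeded that in DMSO by 0.30 (SE 0.39) and 0.33 (SE 0.36).

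Trim25 (NM_009546, chromosome 11, 88860717 to 88881607, plus strand), the ligase of RIG-I signalling, was the most counted gene of the set. It measured 40.9, 40.8 and 38.6 CPM in DMSO without Dox and 167, 196 and 195 CPM with Dox. In ISO it measured 113, 134 and 103 CPM without Dox and 279, 433 and 365 CPM with Dox. In SR-3420 it measured 54.0, 72.0 and 53.4 CPM without Dox and 171, 306 and 262 CPM with Dox. Both states were therefore higher in ISO than in DMSO, and the difference with Dox was present at each stimulation, with log2 fold changes of 2.20 (SE 0.22), 1.63 (SE 0.18) and 2.03 (SE 0.19).

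Usp18 (NM_011909, chromosome 6, 121195924 to 121220935, plus strand), the ISG15 protease, had the largest difference of the set in the mean of the 3 stimulations, at 3.25 on the log2 scale (SE 0.26). In DMSO it measured 12.5, 10.9 and 8.12 CPM without Dox and 69.8, 162 and 136 CPM with Dox. In ISO it measured 7.56, 19.8 and 9.01 CPM without Dox and 57.5, 161 and 125 CPM with Dox. In SR-3420 it measured 12.2, 12.8 and 14.9 CPM without Dox and 66.8, 122 and 140 CPM with Dox. Every library with Dox stood above every library without, and in each trio with Dox replicate 1 was the lowest. The log2 fold changes were 3.48 (SE 0.50), 3.25 (SE 0.45) and 3.04 (SE 0.39).

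The 3 remaining TRIM genes lie on chromosome 7. Trim30a (NM_009099, 111557540 to 111613707, minus strand), known as a brake on Toll-like receptor signalling in mice, ran from 1.08 to 11.9 CPM without Dox and from 21.7 to 62.6 CPM with Dox. Its log2 fold changes were 3.04 (SE 0.64), 2.88 (SE 0.58) and 3.21 (SE 0.53), next to those of Usp18, and without ISO without Dox replicate 2 the value in ISO was 3.93. Trim34a (NM_030684, 111392971 to 111410750, plus strand) ran from 5.25 to 15.1 CPM without and from 21.7 to 84.5 CPM with Dox, with log2 fold changes of 2.24 (SE 0.47), 2.15 (SE 0.50) and 2.54 (SE 0.42). Neither gene overlapped between the states in any stimulation. Both have close relatives whose reads the authors' counting could share, and Trim34a overlaps the opposite-strand gene Gm15135, which makes the values of both uncertain.

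Trim21 (NM_001082552, 109706434 to 109713996, minus strand), the antibody receptor, had the smallest mean difference, 1.48 on the log2 scale (SE 0.23). In DMSO it measured 10.7, 9.52 and 4.06 CPM without Dox and 24.6, 40.6 and 41.6 CPM with Dox. In ISO it measured 7.56, 13.9 and 11.3 CPM without Dox and 11.7, 42.5 and 30.8 CPM with Dox. In SR-3420 it measured 10.5, 15.7 and 11.0 CPM without Dox and 26.4, 23.9 and 26.0 CPM with Dox. The groups were separate in DMSO and SR-3420 and overlapped in ISO. The log2 fold change was 2.06 (SE 0.44) in DMSO, 1.36 (SE 0.39) in ISO and 1.02 (SE 0.36) in SR-3420, the last not called. With a term for the replicate number added to the model (replicate block), the value in SR-3420 was 1.04 (SE 0.30) and was called.

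**Figure D2:**
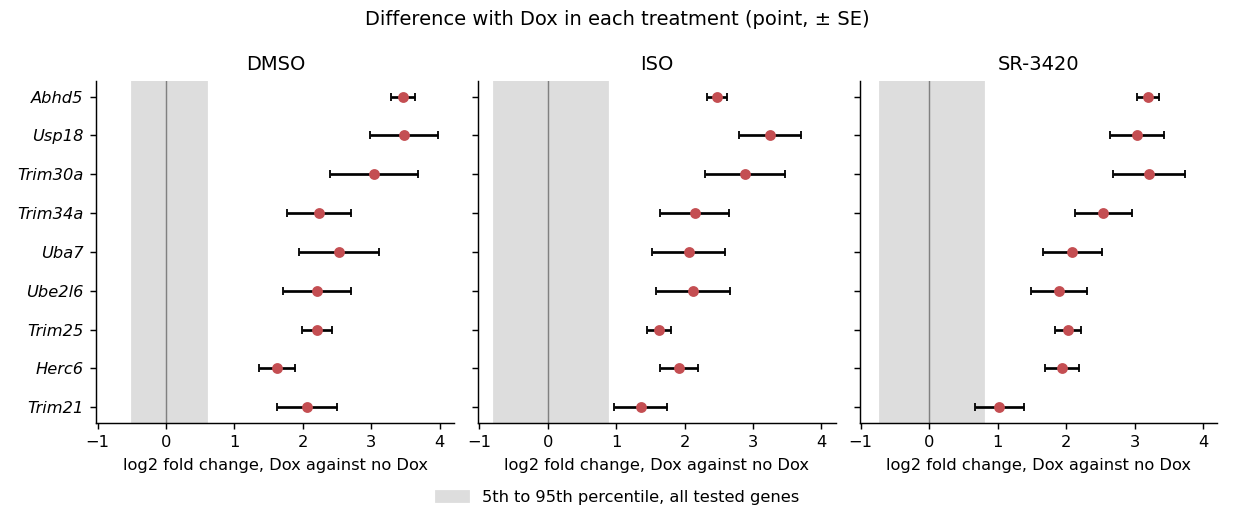
Log2 fold change with Dox (horizontal axis, point with its SE) of the 8 tested genes and of Abhd5 in each stimulation, with the grey band spanning the 5th to 95th percentile of all 10178 tested genes. Usp18 and Trim30a lie furthest to the right among the 8 genes and Trim21 furthest to the left in ISO and SR-3420, and every point lies outside the band.

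The lowest library with Dox exceeded the highest without for 8 of the 8 genes in DMSO (7.98% of all tested genes), for 6 in ISO (14.7%) and for 8 in SR-3420 (15.4%). Over all 18 libraries at once this held for 6 of them, all except Uba7 and Trim21, against 0.835% of all tested genes. The change of the Dox effect relative to DMSO was -0.70 to 0.30 on the log2 scale in ISO and -1.04 to 0.33 in SR-3420 over the 8 genes. By edgeR 0 of the 8 passed an adjusted p of 0.05 in either, as by DESeq2 and limma-voom. An unadjusted edgeR p under 0.05 was found for 1 gene in ISO, Trim25 at -0.58 (SE 0.28), and for 0 in SR-3420. Of all tested genes, 1.61% passed as higher and 0.57% as lower in ISO, and 0.54% and 0.216% in SR-3420. The most negative values were those of Trim21, -0.70 (SE 0.59) in ISO and -1.04 (SE 0.56) in SR-3420. These values share the DMSO libraries and the contrasts for which the genes were chosen.

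Per kilobase of counted sequence, the levels with Dox differed over an order of magnitude within the set. The median over the 9 libraries with Dox was 20.9 CPM per kilobase for Trim25 (13.3 to 34.6), above all other genes, and 11.7 for Uba7 (2.95 to 17.6). Isg15 (6.03), Trim21 (5.52) and Usp18 (5.38) followed, then Trim34a (3.36), Ube2l6 (3.06) and Herc6 (2.56). Trim30a, at 0.995 CPM per kilobase (0.446 to 1.29), was the lowest, with a range below that of Herc6 (1.46 to 3.50), while the ranges of all other neighbours in this order overlapped. If the counts are intron counts, these levels follow unspliced RNA and do not give the order of the mRNAs.

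With Dox, replicate 1 was often the lowest. It was the lowest of its trio for 7 of the 8 genes in DMSO, for 8 in ISO and for 7 in SR-3420, where it was the lowest for 31.6%, 33.5% and 32.1% of all tested genes. It was the lowest in all 3 trios for 6 of the 8 genes, all except Uba7 and Trim21, against 7.14% of all tested genes, and for 40 of 44 other interferon-stimulated genes. Without Dox, no gene of the set had replicate 1 lowest in all 3 trios, against 4.56% of all tested genes and 6 of the 44 other interferon-stimulated genes. Usp18 in replicate 1 with Dox was 0.468, 0.401 and 0.510 of the mean of replicates 2 and 3 in DMSO, ISO and SR-3420. The same ratio for Abhd5 was 1.02, 0.975 and 0.762. By depth, replicate 1 with Dox was the deepest library in DMSO and SR-3420 (1956565 and 1491360 counts) and the middle one in ISO (1213883), and the part of depth was not tested. The labels do not say that a replicate number marks a shared day or culture. Across groups, 18 of 18 libraries correlated best with their own number, and what same-numbered libraries share was not tested. With the replicate block, 8 of the 8 genes were called higher with Dox in each of DMSO, ISO and SR-3420. Using replicates 2 and 3 only, an alternative added after the data were seen, 8, 8 and 7 of the 8 genes were called higher with Dox in DMSO, ISO and SR-3420, the same counts as with all libraries. In DMSO the log2 fold change was then 3.09 for Ube2l6 in place of 2.20 and 2.65 for Trim21 in place of 2.06.

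**Figure D3:**
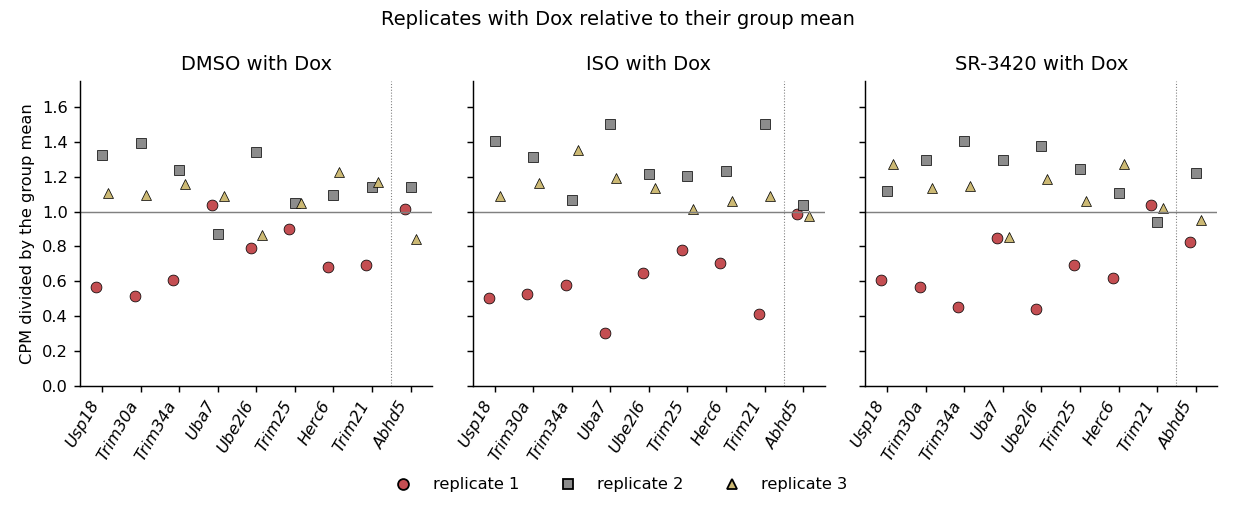
CPM of each library with Dox divided by the mean of its group (vertical axis, linear from 0) for the 8 tested genes and, right of the dotted line, Abhd5, with replicate 1 as red circles, replicate 2 as grey squares and replicate 3 as yellow triangles. Replicate 1 lies lowest for 7, 8 and 7 of the 8 genes in DMSO, ISO and SR-3420, while Abhd5 in replicate 1 is near its group mean in DMSO and ISO.

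The other genes of the pathway were taken from lists. Of 11 further genes tied to ISG15 conjugation or to the partners of these enzymes, all were tested, and Stat2, the interferon signalling factor that USP18 binds, was the single gene called higher with Dox at each stimulation, by 1.86 (SE 0.31), 1.07 (SE 0.27) and 1.76 (SE 0.29) on the log2 scale. Of the list's 33 tests, 7 had an unadjusted edgeR p under 0.05 and 3 were called, as many as by DESeq2 and by limma-voom, and its median was -0.04, -0.02 and 0.17. Ifnar2, the receptor chain that USP18 docks to, measured 0.49, 0.10 and 0.24 and was not called, and neither were Ube2l3 and Usp21, the lowest of the list at -0.41 in the mean. In SR-3420 Usp21 was lower with Dox by 0.73 (edgeR adjusted p 0.0272), below the fold limit. Of 8 genes for interferon receptor chains and their kinases, Ifnar1, Ifngr1, Jak1 and Tyk2 among them, 0 were called at any stimulation by edgeR, DESeq2 or limma-voom, with an unadjusted edgeR p under 0.05 for 1 in DMSO, 2 in ISO and 4 in SR-3420. The kinase Jak2 was the lowest of them, with values of -0.10, -0.68 and -0.69 in DMSO, ISO and SR-3420, below the fold limit at edgeR adjusted p of 0.00795 in ISO and 0.0171 in SR-3420. In the other direction and also below the fold limit, Ifngr1 measured 0.60 in ISO (edgeR adjusted p 0.0227) and Jak1 0.62 in SR-3420 (edgeR adjusted p 0.0218). Of the interferon ligands, Ifng, Ifnl2 and Ifnl3 had a row and 0 counts in each of the 18 libraries, which allows up to 3 counts per library, and the others, type I interferons included, were not analysed here.

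Interferon-stimulated genes outside the set stood high with Dox as the set did. Of 52 listed genes, 48 had a row and 44 were tested, of which 39 were called higher in DMSO, 39 in ISO and 42 in SR-3420, against 0.874%, 3.13% and 2.44% of all tested genes, with medians of 2.57, 2.57 and 2.55 on the log2 scale. The list was written with these results known and is no independent support. Oas1a, a sensor of double-stranded RNA that makes the activator of RNase L, and Rsad2 (viperin) and Mx2, both antiviral effectors, had the largest mean differences, at 4.65 (SE 0.79), 4.62 (SE 0.63) and 4.36 (SE 0.39). Irf1, a transcription factor that interferon gamma induces strongly, had the lowest, 0.54 (SE 0.15). The 5 genes outside the set whose 3 Dox effects and mean ISO and SR-3420 effects lay closest to the set's medians were Adar, Parp9, Znfx1, Tor3a and Ifit2, at Euclidean distances of 0.28, 0.45, 0.45, 0.51 and 0.64 log2 units over these 5 values. Adar, the nearest, was 2.32, 2.19 and 2.29 higher with Dox in DMSO, ISO and SR-3420.

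The gene families from which the set's enzymes come were mostly not called. Among the other TRIM genes, 55 had a row and 32 were tested, of which 3 were called higher in DMSO, 3 in ISO and 2 in SR-3420, against the same 0.874%, 3.13% and 2.44%, and their medians were -0.01, -0.25 and 0.02. The 3 with the largest mean difference were Trim12c at 2.30 (SE 0.23), Trim12a at 2.22 (SE 0.17) and Trim14, a mitochondrial adaptor of antiviral signalling, at 1.41 (SE 0.22), while Trim13 was lowest at -0.71 (SE 0.40). Trim12a and Trim12c lie within 500 kb of Trim30a and Trim34a, and of the 3 tested genes outside the set in that interval they were the 2 called higher with Dox at 1 or more stimulations, a call that 4.3% of all tested genes had. Within the same distance of the other 7 members, 0 of 73 tested genes were called higher by edgeR, DESeq2 or limma-voom, and 23 had an unadjusted edgeR p under 0.05 in that direction at 1 or more stimulations. The 4 relatives share sequence, so counts could be split between them. Of 42 tested ubiquitin-specific proteases other than Usp18, 29 E2 genes other than Ube2l6, 8 E1 genes and E1 subunits other than Uba7 and 4 HERC genes other than Herc6, 0 were called in either direction at any stimulation by edgeR, DESeq2 or limma-voom. An unadjusted edgeR p under 0.05 was found in 20 of 126 tests of the proteases, 16 of 87 of the E2 genes, 8 of 24 of the E1 genes and 4 of 12 of the HERC genes. Below the fold limit, an edgeR adjusted p of 0.05 was passed in ISO by 1 protease higher and 3 lower, 3 E2 genes higher and 1 HERC gene lower. In SR-3420 it was passed by 2 proteases higher and 1 lower, and by 1 E2 gene higher and 1 lower. Of all 10178 tested genes, 1297 passed it in ISO and 1175 in SR-3420. The extremes of their mean Dox effects were 0.60 (Usp25) and -0.44 (Usp12) for the proteases, 0.50 (Ube2cbp) and -0.54 (Ube2d1) for the E2 genes, 0.27 (Uba3) and -0.44 (Nae1) for the E1 genes and 0.23 (Herc1) and -0.37 (Herc4) for the HERC genes.

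**Figure D4:**
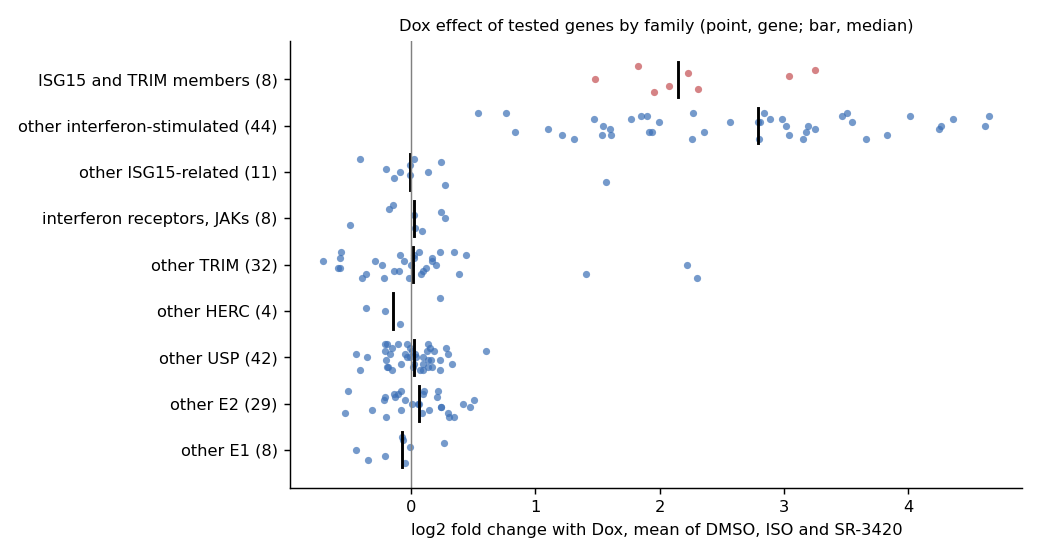
Mean log2 fold change with Dox over DMSO, ISO and SR-3420 (horizontal axis) of each tested gene (points) by list, with the number of tested genes in brackets and the median as a bar. The 8 genes of the set and the other interferon-stimulated genes lie right of 0, whereas the E1, E2, HERC and USP families lie within 0.60 of 0 and 3 other TRIM genes and Stat2 stand apart from their lists.

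The stimulations were compared on averages over both Dox states, which the choice of the genes did not use. Trim25 rose with ISO, by 1.25 on the log2 scale (SE 0.14, 95% interval 0.96 to 1.54, edgeR adjusted p 2.72e-08), and all 3 ISO libraries lay above all 3 DMSO libraries both without and with Dox. It rose less with SR-3420, by 0.50 (SE 0.14, 95% interval 0.20 to 0.79, edgeR adjusted p 0.0287), and here the groups with Dox overlapped. The difference between ISO and SR-3420 was 0.75 (SE 0.13, edgeR adjusted p 3.23e-05). Group means of Trim25 were 40.1 ± 1.34, 117 ± 15.8 and 59.8 ± 10.6 CPM without Dox in DMSO, ISO and SR-3420, and 186 ± 16.5, 359 ± 77.1 and 246 ± 69.2 CPM with Dox (SD, n = 3 each). These effects share the DMSO libraries.

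For ISO, Trim25 was the 1 of 8 genes that passed an adjusted p of 0.05, while 21.8% of all tested genes passed as higher and 22.9% as lower. For SR-3420 it was also 1 of 8, against 5.52% higher and 2.27% lower, and for ISO against SR-3420 1 of 8, against 19.3% and 20.4%. With library totals in place of TMM the share of passing genes that were higher moved from 48.8% to 31.0% for ISO and from 70.9% to 37.9% for SR-3420. Trim25 did not pass for SR-3420 with library totals only (0.39, adjusted p 0.124), in limma-voom (adjusted p 0.0653), or when 1 of 7 libraries was left out. These were the DMSO libraries without Dox, DMSO with Dox replicate 1, replicate 2 of both SR-3420 groups and replicate 3 of the one with Dox. Over the alternatives the adjusted p lay between 0.00159 and 0.124.

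With 1 mean per group and no further term in the model, the other 7 genes did not pass in any of the 3 comparisons. Their 95% intervals held both signs, except that of Herc6 for ISO against SR-3420 (-0.38, -0.77 to -0.0011). With the replicate block, Herc6 (-0.41, edgeR adjusted p 0.0065) and Trim34a (-0.57, adjusted p 0.0267) passed for ISO. For ISO against SR-3420, Herc6 (-0.40, adjusted p 0.00538), Ube2l6 (-0.66, adjusted p 0.0407) and Trim34a (-0.50, adjusted p 0.0428) passed with it. Usp18 measured 0.07 with ISO (95% interval -0.62 to 0.76) and 0.10 with SR-3420 (-0.55 to 0.75), and Uba7 measured 0.00 (-0.81 to 0.81) and 0.45 (-0.29 to 1.19). Trim21 and Trim30a measured 0.09 and 0.08 with ISO, and the sign of these and of Usp18 turned with library totals only and when single libraries were left out. The lowest values were then -0.12 for Trim21, without ISO with Dox replicate 2, and -0.42 for Trim30a and -0.17 for Usp18, both without ISO without Dox replicate 2. Lower values with ISO were found for Ube2l6 at -0.50 (95% interval -1.25 to 0.26, and 0.051 with replicates 2 and 3 only), Trim34a at -0.48 (-1.19 to 0.22) and Herc6 at -0.37 (-0.76 to 0.02). Herc6 with ISO passed in 5 alternatives, with edgeR adjusted p of 0.121 in the main result and 0.0065 to 0.309 over the alternatives, among them leaving out ISO without Dox replicate 2 (-0.51, adjusted p 0.0408) or DMSO with Dox replicate 1 (-0.49, adjusted p 0.0352).

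**Figure D5:**
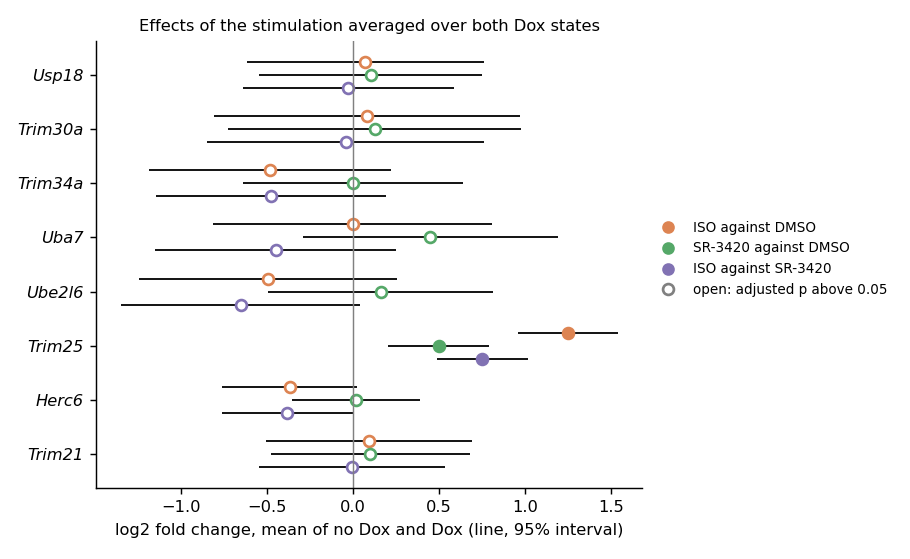
Log2 fold change (horizontal axis) of the 8 tested genes for ISO against DMSO, SR-3420 against DMSO and ISO against SR-3420, each averaged over no Dox and Dox, with 95% intervals as lines, filled points for an edgeR adjusted p of 0.05 or less and open points otherwise. Trim25 has filled points, at 1.25, 0.50 and 0.75, and the other 7 genes have open points.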

How the data were processed

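Per the study's methods, STAR 2.4.2a placed the reads on mm9, HOMER limited them to 1 per position and length, and iRNA-seq produced gene-level counts. The authors deposited these raw counts, which were used unchanged. The submitters' labels call cells with Dox wild type although the shRNA remains. All sample columns matched a title, with 0 left over. The figure legends call replicates independent experiments, but the labels do not tie replicate numbers to cultures.

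Genes were kept with filterByExpr on 6 groups (10178 tested, 7494 not), scaled by TMM (0.768 to 1.13) and fitted with edgeR 4.0.16 in R 4.3.3, with quasi-likelihood tests (two-sided), 1 mean per group and no covariate. Benjamini-Hochberg adjustment covered all tested genes. Standard errors and 95% intervals came from the fitted model. Common dispersion was 0.0176 (biological coefficient of variation 0.133). On simulated data for 9923 genes, 89% of changes of 1.5 and 98% of changes of 3 (log2) were recovered for Dox in DMSO. The changed genes were drawn at random from the tested genes, with no deviation shared by replicate number. These shares therefore do not give the recovery for members with few counts.

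Members and lists were chosen with earlier results of these data known. Named genes were the members, Abhd5, the 3 highest and 1 lowest gene of each list by mean Dox effect, and the 5 nearest genes. Names outside this rule were chosen after values were seen. The values of 1 gene of a list are not reported here. Alternatives tried were scaling by RLE, by upper quartiles or by totals, no filter, at least 10 counts in every library, DESeq2 1.42.0, limma-voom (limma 3.58.1), a replicate block and leaving out each library. Marker lists of adipocytes, preadipocytes and leukocytes served as checks. Positions are those of the table on mm9 with starts counted from 1, and counting was not stated to use strand. Promoters were taken from a different build, GRCm38.p6, and no coordinates were converted.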

Additional observations from a re-analysis of the deposited data

How the results depend on the processing

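Every tested member kept a higher value with Dox under every alternative. With at least 10 counts in every library, 2 members remained tested and 2 were called in each of DMSO, ISO and SR-3420. With limma-voom, 5 were called in DMSO, without Trim30a, Ube2l6 and Uba7, and 6 in ISO, without Trim21 and Uba7. Leaving out 1 library gave 6 to 8 members called in DMSO (6 without DMSO without Dox replicate 1, which lost Uba7 and Trim34a, or replicate 3, which lost Trim21 and Ube2l6), 7 to 8 in ISO (Trim21 lost without ISO without Dox replicate 1 or ISO with Dox replicate 2) and 7 to 8 in SR-3420 (Trim21 gained without ISO with Dox replicate 1 or 2). For the mean ISO effect, 2 members passed with library totals only and 2 with no filter, and leaving out 1 library gave 1 to 2. For the mean SR-3420 effect, 0 passed with library totals only and 0 with limma-voom, and leaving out 1 library gave 0 to 1. For ISO against SR-3420, 3 passed with no filter, and leaving out 1 library gave 1 to 3, the 3 being Trim25, Herc6 and Ube2l6 without ISO without Dox replicate 2 or without SR-3420 with Dox replicate 1. Scaled by totals alone, the median of all genes was -0.22 for Dox in SR-3420, -0.17 for ISO and -0.13 for SR-3420, in place of 0.00, -0.01 and -0.01, and the share of Dox calls in SR-3420 that were higher moved from 71.7% to 35.3% (61.3% with upper-quartile factors). The cause of these changes was not tested. Same-numbered libraries deviated together, with r of 0.0352 to 0.267 over 45 pairs of libraries from different groups, 34 of them over 0.1. Pairs with different numbers had r of -0.204 to 0.0806 over 90 pairs, 0 of them over 0.1. Across groups, 18 of 18 libraries correlated best with their own number. The numbers were not taken as pairing because not all 45 pairs passed 0.1. The errors and calls of the main model therefore leave this shared deviation out. With the replicate block, 8 members were called in SR-3420 (Trim21 gained, at 1.04), 3 members passed for ISO (Trim25, Herc6 and Trim34a) and 4 for ISO against SR-3420 (with Ube2l6 added). Low depth limits Isg15, Uba7 and Trim30a most, with at most 1, 12 and 13 counts per library without Dox.

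The sign of 13 stimulation effects that had not passed turned under some alternatives, 80 times in all, with edgeR, DESeq2 or limma-voom adjusted p of 0.521 or more each time. For ISO, Usp18 was -0.096, Trim21 -0.073 and Trim30a -0.087 with library totals only, Usp18 -0.010 and Trim30a -0.00067 with upper-quartile factors, Usp18 -0.0091 and Trim30a -0.018 with the replicate block, Trim30a -0.070 with limma-voom, and Uba7 0.0020 with RLE factors and 0.015 with no filter. For SR-3420, Usp18 was -0.0029, Herc6 -0.085 and Trim21 -0.026 with library totals only, Herc6 -0.026 with upper-quartile factors, -0.0045 with DESeq2 and -0.0045 with the replicate block, and Trim34a 0.0094 with no filter. With replicates 2 and 3 only, Uba7 was 0.19 and Ube2l6 0.051 for ISO, Trim34a 0.045 for SR-3420, and Usp18 0.079, Trim21 0.23 and Trim30a 0.10 for ISO against SR-3420. Leaving out 1 library gave, for ISO, -0.17 to 0.24 for Usp18, -0.26 to 0.22 for Uba7, -0.12 to 0.28 for Trim21 and -0.42 to 0.29 for Trim30a. For SR-3420 it gave -0.067 to 0.24 for Usp18, -0.11 to 0.14 for Herc6, -0.074 to 0.25 for Trim21, -0.10 to 0.29 for Trim30a and -0.23 to 0.18 for Trim34a. For ISO against SR-3420 it gave -0.27 to 0.13 for Usp18, -0.22 to 0.18 for Trim21 and -0.55 to 0.18 for Trim30a.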

Other observations

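Among the 44 tested interferon-stimulated genes outside the set, 3 rose and 2 fell with ISO averaged over both Dox states (edgeR adjusted p of 0.05 or less), against 21.8% higher and 22.9% lower among all tested genes. Isg20, an interferon-induced exonuclease, rose by 1.37 on the log2 scale (edgeR adjusted p 0.000422) and Oasl1 by 0.94 (edgeR adjusted p 0.0366). Ddx60 fell by 1.01 (edgeR adjusted p 0.00414) and Gbp3 fell by 0.98 (edgeR adjusted p 0.012). Lgals3bp was the 1 gene of the list that passed for SR-3420, where it rose by 0.65 (edgeR adjusted p 0.00292). The number passing for ISO was 2 to 9 over the alternatives. These genes were named after their values were seen.

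Of the 32 tested TRIM genes outside the set, 2 rose and 9 fell with ISO, where 21.8% of all tested genes rose and 22.9% fell. With library totals only, 19 of the 32 passed in place of 11, and 4511 of all 10178 genes in place of 4552.

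Adipocyte markers were also higher with Dox in part, with 0 of 12 called in DMSO (2 at an unadjusted edgeR p under 0.05, and 0 called by DESeq2 or limma-voom), 6 in ISO and 3 in SR-3420, against 0.874%, 3.13% and 2.44% of all tested genes called higher. Their summed level was 2939 to 3443 CPM in DMSO without Dox and 3457 to 3897 CPM with Dox, 4123 to 4450 and 6436 to 7196 CPM in ISO, and 4245 to 4472 and 4748 to 5995 CPM in SR-3420. Of 6 tested preadipocyte markers, 0 were called by edgeR, DESeq2 or limma-voom in DMSO, ISO or SR-3420, with an unadjusted edgeR p under 0.05 for 2, 2 and 1, and 5, 4 and 3 had positive values. Their part in the values of the set was not tested.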
